A study of Caenorhabditis elegans with 8 samples.

Results

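The protein-coding genes catp-4, Y51H7C.1, H05L14.1, K09F6.3, F57F4.1 and C33F10.11 of Caenorhabditis elegans are described here across wild-type animals and hizr-1 mutants with and without cadmium. They were chosen by their lower transcript levels with cadmium in the wild type, and they are 6 of the 46726 genes counted and of the 15818 genes that passed a filter on low counts. All 6 passed that filter. The values that chose them are the wild-type cadmium values, which are therefore given as a description. Calls and adjusted p-values on these values are no test of the 6 genes. The question put to the other values was whether the 6 genes go with cadmium or with the amount of sperm transcript in the animals.

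RNA of whole animals was sequenced after depletion of ribosomal RNA. The wild type was strain N2, and the mutant was an N2 derivative carrying the hizr-1 loss-of-function allele am286. The product of hizr-1 is a nuclear receptor, known as the worm's sensor of high zinc. Plates started with 3 L4 hermaphrodites were grown for 4 days, and the mixed-stage animals were then kept for 16 to 18 h at 20 °C on noble agar minimal medium with E. coli OP50 and 0 or 100 mM cadmium chloride. The dose is given as the labels write it, and its unit could not be checked here. Each of the 4 groups had 2 samples, each a pool of 10 plates, and nothing states that the pools were independent beyond that, so p-values cover the spread between pools, which may be technical. Only whole, mixed-stage animals were measured: neither sex nor stage was separated.

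Total counts ran from 17681352 to 29586507 per library. Transcripts of hizr-1 had 52 to 101 counts in the wild-type libraries and 7 to 20 in the libraries of the mutant. Levels below are counts scaled to library size (CPM) with library sizes scaled by TMM, a correction for differences in RNA composition.

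Hermaphrodites of C. elegans make sperm first, late in larval life, and oocytes afterwards, so the sperm transcripts of a mixed-stage population depend on which stages it holds. Mature sperm carry out no transcription, and genes for sperm proteins are transcribed during spermatogenesis in the germ line. Na+/K+-ATPases are plasma membrane pumps built from a catalytic alpha and a smaller beta subunit, and catp-4 encodes an alpha-type subunit of this P-type ATPase family. The other 5 genes are known here by sequence name only, and no role is given for them.

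Of the 6 genes 4 lie on chromosome II, which holds 17.7% of the genes tested. In the coordinates of the files (WBcel235), catp-4 (WBGene00007248) spans II 14593524 to 14597640 on the + strand in 8 exon blocks, with a coding length of 1015 codons in the reference annotation. Y51H7C.1 (WBGene00021779) spans II 1467727 to 1469674 (+, 8 blocks, 448 codons), K09F6.3 (WBGene00019586) II 2256306 to 2261167 (+, 8 blocks, 1391 codons) and C33F10.11 (WBGene00016357) II 4834159 to 4834834 (-, 2 blocks, 182 codons). H05L14.1 (WBGene00010366) spans I 7972473 to 7977053 (-, 12 blocks, 794 codons), and F57F4.1 (WBGene00019015) V 6390464 to 6392471 (+, 7 blocks, 461 codons). The genes on chromosome II are far apart from each other. No other counted gene overlapped any of the 6 in the files. In the reference annotation the end of F57F4.1 reaches into gfi-1 on the other strand.

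Transcripts of catp-4 were at 6.77 and 11.1 CPM in wild-type replicates 1 and 2 without cadmium and at 2.05 and 3.54 CPM with it. In the mutant catp-4 was at 20.2 and 19.2 CPM without cadmium and at 14.9 and 16.9 CPM with it. The 4 groups of catp-4 did not overlap, and all 4 mutant libraries lay above all 4 wild-type libraries. The log2 change with cadmium in the wild type was -1.69 ± 0.299 (SE).

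K09F6.3 had the same order of groups as catp-4. It was at 3.78 and 5.45 CPM in the untreated wild type and at 1.26 and 1.79 CPM with it, a log2 change of -1.60 ± 0.279. In the mutant it was at 11.5 CPM in both replicates without cadmium and at 7.03 and 8.29 CPM with it. Here too the 4 groups did not overlap.

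H05L14.1 was at 2.10 and 4.41 CPM in the untreated wild type and at 0.41 and 0.85 CPM with it, on 12 and 19 counts. Its log2 change was -2.38 ± 0.42. In the mutant it was at 7.07 and 7.04 CPM without cadmium and at 5.97 and 5.46 CPM with it. The groups of H05L14.1 were again separate and in the order seen for catp-4.

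C33F10.11, the shortest of the 6 genes, was at 2.14 and 4.27 CPM in the untreated wild type and at 0.341 and 0.716 CPM with it (10 and 16 counts), a log2 change of -2.62 ± 0.451. In the mutant it was at 6.52 and 4.48 CPM without and 4.4 and 5.36 CPM with cadmium. The 2 mutant groups overlapped, and both lay above the wild type.

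F57F4.1 was the lowest of the 6 in CPM. It was at 1.42 and 2.46 CPM in the untreated wild type and at 0.137 and 0.448 CPM with it, on only 4 and 10 counts, a log2 change of -2.78 ± 0.50. In the mutant it was at 2.73 and 3.49 CPM without and 2.15 and 2.68 CPM with cadmium. The mutant with cadmium overlapped the wild type without it, while both wild-type cadmium libraries lay below all others.

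Y51H7C.1 stood apart in the order of its groups. It was highest in the wild type without cadmium, at 7.05 and 8.29 CPM, and lowest in the wild type with cadmium, at 2.25 and 3.09 CPM, a log2 change of -1.53 ± 0.247. The mutant lay between these, at 5.07 and 4.91 CPM without cadmium and at 4.56 and 5.25 CPM with it, and its 2 groups overlapped. Y51H7C.1 was thus the 1 gene of the 6 with a lower level in the mutant than in the wild type without cadmium.

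**Figure D1:**
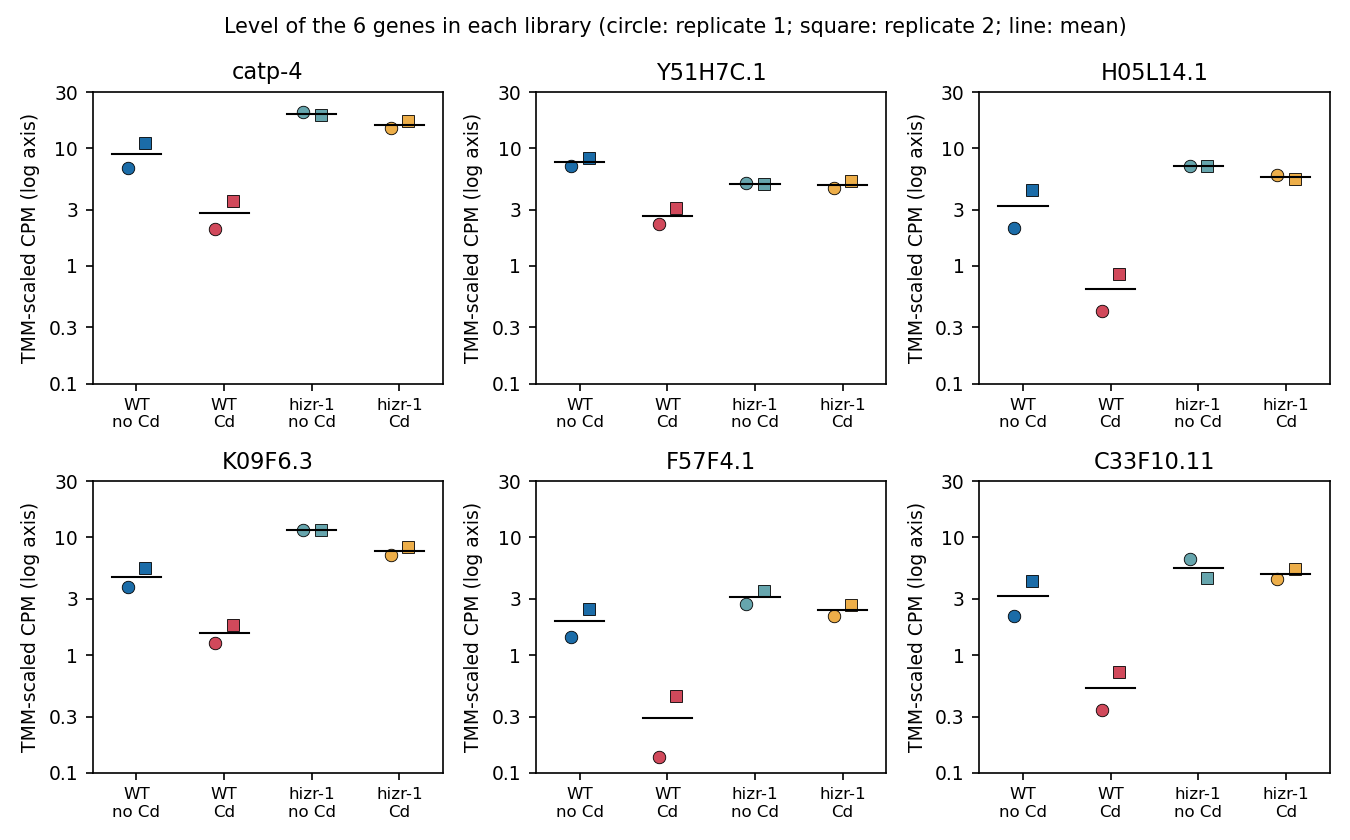
TMM-scaled CPM of each gene on a log axis, for every library of the 4 groups, with circles for replicate 1, squares for replicate 2 and a line at the mean. Wild-type cadmium libraries are the lowest in all 6 panels, and every mutant library lies above every wild-type library for catp-4, H05L14.1, K09F6.3 and C33F10.11. For F57F4.1 the mutant with cadmium overlaps the wild type without it, and for Y51H7C.1 the mutant lies between the wild-type groups.

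Per length, C33F10.11 was the most abundant in the mutant, at 8.71 ± 2.29 RPKM without cadmium (TMM-scaled, SD, n = 2), followed by catp-4 at 6.20 ± 0.236 RPKM. In the wild type without cadmium Y51H7C.1 (5.31 ± 0.607 RPKM) and C33F10.11 (5.07 ± 2.39 RPKM) were the highest and did not differ beyond their spread. H05L14.1 (1.30 ± 0.651 RPKM), F57F4.1 (1.37 ± 0.517 RPKM) and K09F6.3 (1.11 ± 0.285 RPKM) were alike within their spread in that group. 

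In the wild-type cadmium contrast that chose the 6 genes, 8 of the 15818 tested genes (0.0506%) fell at an adjusted p under 0.05. These were the 6 genes with cth-1 and fat-7. The adjusted p of Y51H7C.1 was the lowest of the 8, at 0.0264 (edgeR's quasi-likelihood test). Those of catp-4, H05L14.1, F57F4.1 and C33F10.11 were 0.0433, just inside the threshold. The choice of genes fixed these calls, so they are a description and no test of the 6 genes. Just outside were a pseudogene, WBGene00019169, at -2.26 ± 0.43 (adjusted p = 0.059), and Y106G6G.4 at -1.53 ± 0.291 (adjusted p = 0.0594). The wild-type groups did not overlap for any of the 6, as for 21.3% of all tested genes with cadmium lower. The calls rested on the libraries in the fit. Of the 6 genes, 0 passed without wild-type cadmium replicate 1, wild-type cadmium replicate 2, mutant cadmium replicate 1 or mutant cadmium replicate 2. Without wild-type replicate 2 lacking cadmium 3 passed, and without mutant replicate 2 lacking cadmium 2 passed. With limma-voom 1 passed, and with a block for replicate number 4 passed.

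The wild-type cadmium contrast did not use the direction and size of the cadmium change in the mutant. It did use the spread of the mutant libraries, since 1 fit of all 8 libraries gave the SE. The genes were also chosen with earlier results of these data known. The mutant contrast is thus not fully independent of the choice. All 6 log2 changes were below 0 in the mutant, with a median of -0.31 against 0.002 over all genes tested. None passed edgeR's test (0 of 6, against 0.0316% of all genes in either direction), nor DESeq2 or limma-voom. The largest was that of K09F6.3, at -0.59 ± 0.245, the 1 gene of the 6 with an unadjusted p under 0.05 (edgeR, adjusted p = 1.00), while 1.78% of all genes had such a p.

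The mutant intervals bound what these libraries could show. The 95% interval of the log2 change with cadmium in the mutant was -0.90 to 0.28 for catp-4, -0.56 to 0.49 for Y51H7C.1, -1.03 to 0.43 for H05L14.1 and -1.12 to -0.06 for K09F6.3. It was -1.18 to 0.45 for F57F4.1 and -0.96 to 0.59 for C33F10.11. For catp-4, K09F6.3, H05L14.1 and F57F4.1 both mutant cadmium libraries lay below both mutant libraries without cadmium. These are 4 of 6 genes, against 14.8% of all genes tested. The choice favoured genes with a small spread, also among the mutant libraries, so the interval widths and this count are descriptions.

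Differences between the genotypes share the wild-type libraries with the contrast that chose the genes, so they are given as values only. Without cadmium the mutant minus wild type difference in log2 was 1.33 ± 0.252 for K09F6.3, 1.15 ± 0.277 for catp-4, 1.13 ± 0.345 for H05L14.1, 0.80 ± 0.364 for C33F10.11 and 0.69 ± 0.382 for F57F4.1. For Y51H7C.1 it was -0.62 ± 0.238. With cadmium it ran from 0.88 ± 0.249 for Y51H7C.1 to 3.23 ± 0.443 for C33F10.11. The mutant cadmium effect minus that of the wild type was 1.37 ± 0.402 for catp-4, 1.5 ± 0.345 for Y51H7C.1, 2.08 ± 0.537 for H05L14.1, 1.01 ± 0.37 for K09F6.3, 2.41 ± 0.634 for F57F4.1 and 2.43 ± 0.578 for C33F10.11. With cadmium the mutant libraries lay above the wild-type libraries for 6 of 6 genes (20.8% of all tested genes), and without cadmium for 5 of 6 (19.3%), with Y51H7C.1 as the 1 gene lower (19.2%). For 4 genes (catp-4, H05L14.1, K09F6.3 and C33F10.11) every mutant library lay above every wild-type library, which held for 7.11% of all tested genes.

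Sperm transcripts were summarised in each library by a sperm index, the median log2 CPM over 62 tested genes. Of these, 26 encode major sperm proteins, the abundant cytoskeletal and signalling proteins of nematode sperm, and 36 act in spermatogenesis or sperm function. None of the 6 genes is in either list. In replicates 1 and 2 the index was 0.74 and 2.25 for untreated and -0.59 and 0.58 for treated wild type. In the mutant it was 2.77 and 1.86 without and 2.35 and 2.44 with cadmium. Both wild-type cadmium libraries had a lower index than any other library, and 60 of the 62 genes had a negative log2 change with cadmium in the wild type. In whole animals fewer cells of a type and less RNA per cell cannot be told apart.

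The 6 genes were chosen for a low value with a small error, which sets them apart from the index genes by construction. In the wild type the median log2 change with cadmium was -2.06 over the 26 major sperm protein genes and -1.24 over the 36 others, against -2.03 over the 6 genes and -0.011 over all genes. The median SE was 0.861 and 0.549 for these lists, while the SE of the 6 genes ran from 0.247 to 0.50, and 0 of the 62 sperm genes passed (edgeR). The most abundant major sperm protein genes were msp-31, at 4.35 and 13 CPM without and 1.13 and 4.21 CPM with cadmium in the wild type, msp-64 and msp-40. Genes of this family are near-identical copies, and how reads matching several of them were counted is not given. Such reads may be missing from these levels or placed on the wrong copy. In the other list zipt-7.1, a zinc transporter gene, was highest and stayed between 65.4 and 86.5 CPM in all 8 libraries.

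Next came alg-4, an Argonaute gene that acts in spermatogenesis. It was at 4.77 and 11.9 CPM without and 1.36 and 3.62 CPM with cadmium in the wild type. In the mutant it was at 20.6 and 23.9 CPM without and 14.7 and 16.0 CPM with cadmium, the order of groups seen for catp-4. The related Argonaute gene alg-3 was named outside the rule, after its values were seen, so its pattern is no added support. It was at 4.49 and 9.57 CPM without and 1.40 and 3.09 CPM with cadmium in the wild type. In the mutant alg-3 was at 19.5 and 17 CPM without and 13.7 and 16.2 CPM with cadmium. By contrast ssp-10, a gene for a small sperm protein, was at 25 and 9.88 CPM in the 2 mutant replicates without cadmium and at 16.2 and 15.9 CPM with it. In the mutant msp-31 was at 22.7 and 9.28 CPM without and 17.9 and 18.1 CPM with cadmium. The 2 mutant groups thus overlapped for both ssp-10 and msp-31. In the 2 mutant libraries without cadmium the median log2 CPM was 3.57 and 1.97 over the major sperm protein genes and 2.09 and 1.5 over the other sperm genes.

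Whether the 6 genes go with sperm transcripts apart from treatment was tested on the replicates. In a fit with the 4 group means and the index, the slope rests only on differences between replicates of a group. The wild-type cadmium contrast did not use the direction of these differences, but it used their size through the SE of the cadmium change. The genes were also chosen with earlier results of these data known. Of the genes that fell, cth-1 and fat-7 were left out for a reason not given, and their slopes are not given here. The slope test is thus not independent of the choice, and the counts that follow may reflect how the genes were picked. All 6 slopes were above 0, with a median of 0.40 against 0.01 over all genes, and 51.9% of all slopes were above 0. The slopes rest on the same replicate pairs, and the genes other than Y51H7C.1 correlated with each other at r of 0.96 or more. They are therefore not 6 separate observations. The slopes of C33F10.11 (0.68 ± 0.153 log2 per unit of index, adjusted p = 0.0237) and catp-4 (0.43 ± 0.119, adjusted p = 0.0434) passed edgeR's test. These are 2 of 6, where 6.39% of all genes had a positive slope that passed. H05L14.1 was at 0.53 ± 0.173 (adjusted p = 0.0756), K09F6.3 at 0.28 ± 0.133 (0.211), F57F4.1 at 0.37 ± 0.238 (0.391) and Y51H7C.1 at 0.20 ± 0.124 (0.374), by the same edgeR test.

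**Figure D2:**
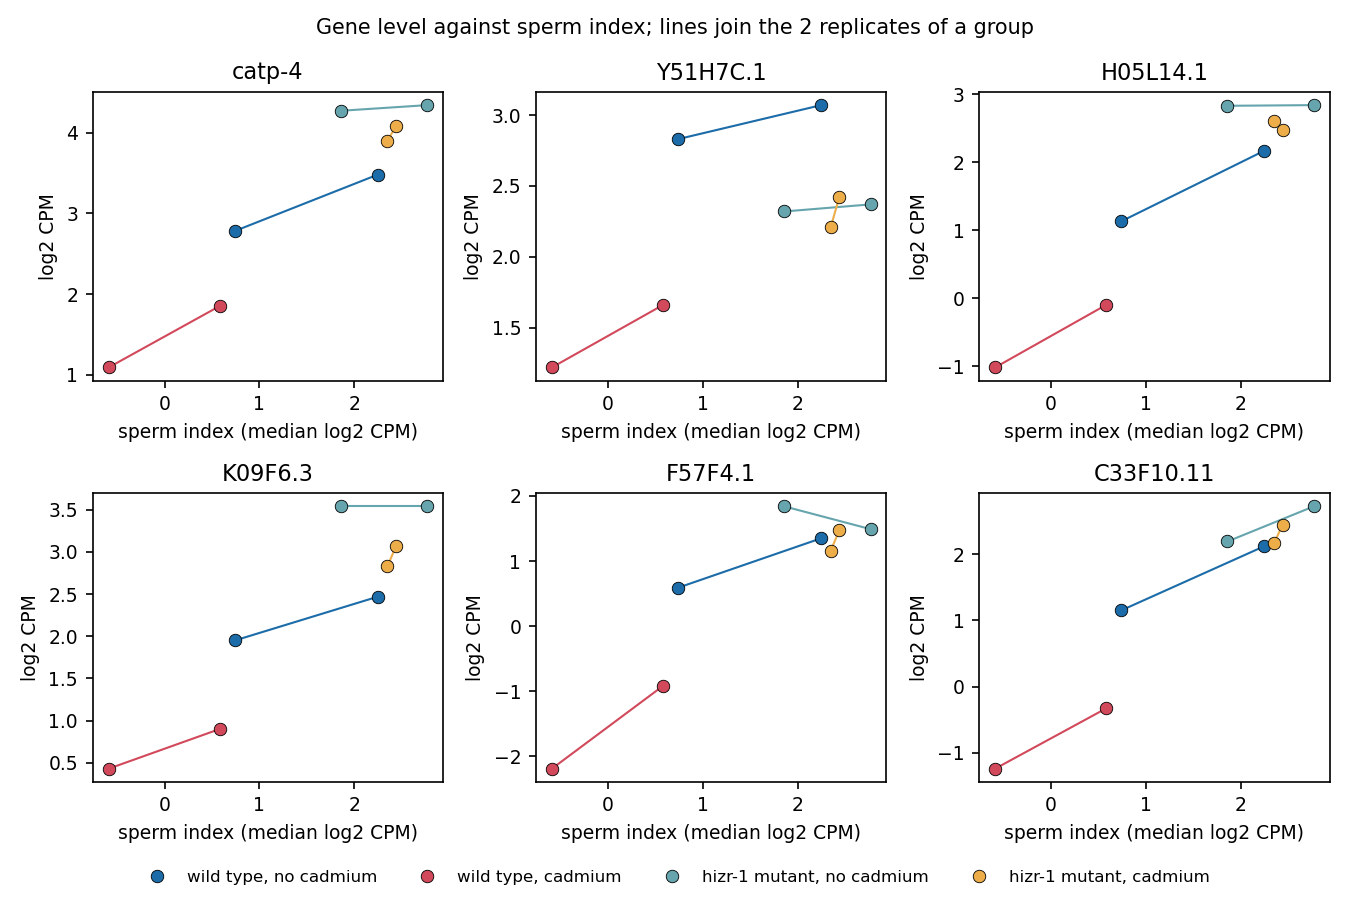
Log2 CPM of each gene against the sperm index of the library, with a line joining the 2 replicates of a group. Lines of both wild-type groups climb with the index in every panel, wild-type cadmium libraries sit lowest, and in the mutant without cadmium only C33F10.11 differs between replicates in the direction of the index by more than 0.1.

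The direction came mostly from the wild type. There replicate 2 had the higher index, by 1.51 without and 1.17 with cadmium, and all 6 genes were higher in replicate 2 of both groups, by 0.23 (Y51H7C.1) to 1.04 (H05L14.1) in log2 without cadmium and by 0.44 (Y51H7C.1) to 1.28 (F57F4.1) with it. In the mutant without cadmium replicate 2 had the lower index, by a difference of -0.91. C33F10.11 was lower there by a log2 difference of -0.53, catp-4 was at -0.08, Y51H7C.1 at -0.05, and F57F4.1 at 0.35 went the other way. Both calls were lost without either wild-type library lacking cadmium: catp-4 then had adjusted p = 0.444 without replicate 1 and 0.45 without replicate 2, and C33F10.11 had 0.368 and 0.372 (edgeR). The call of catp-4 was also lost without any 1 of the 4 cadmium libraries (adjusted p = 0.0722 to 0.0766), and that of C33F10.11 without mutant replicate 2 lacking cadmium (0.0536). H05L14.1 passed without either mutant library lacking cadmium (adjusted p = 0.0157 and 0.0443). With DESeq2 none of the 6 slopes passed (adjusted p = 0.0827 for catp-4 and 0.0563 for C33F10.11).

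At equal sperm index the wild-type cadmium change was smaller for each gene and still below 0. It was -1.03 ± 0.257 for catp-4, 60.9% of the value without the index, and -1.56 ± 0.362 for C33F10.11 (59.5%). For H05L14.1 it was -1.54 ± 0.407 (64.5%), for K09F6.3 -1.16 ± 0.295 (72.7%), for F57F4.1 -2.21 ± 0.581 (79.7%) and for Y51H7C.1 -1.24 ± 0.262 (81%). Without 1 library these values ran from -1.33 to -0.88 for catp-4, -1.77 to -1.43 for C33F10.11, -2.15 to -1.24 for H05L14.1 and -1.48 to -1.06 for Y51H7C.1. K09F6.3 then lay between -1.36 and -1.02, and F57F4.1 between -3.22 and -1.80. In that fit 0 of the 6 passed over all genes, and 0.00632% of all genes were called lower. As the choice of genes used this contrast, these are descriptions, and the calls are no test of the 6 genes. In the wild type the index and the treatment moved together, and a fit on 8 libraries separates them only as far as the within-group slope is known. The median slope was 1.35 over the 26 major sperm protein genes and 0.66 over the 36 other sperm genes, against 0.40 over the 6 genes. Changes at equal index are not given for these sperm genes. The shares left of the 6 genes therefore cannot be set against those of known sperm genes.

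In the mutant the index did not differ by cadmium in one direction, and the values at equal index stayed near those without it. They were -0.35 ± 0.162 for catp-4, -0.34 ± 0.215 for H05L14.1, -0.62 ± 0.176 for K09F6.3, -0.40 ± 0.30 for F57F4.1, -0.21 ± 0.192 for C33F10.11 and -0.04 ± 0.188 for Y51H7C.1. None passed (edgeR, 0 of 6 against 0.0569% of all genes in either direction, lowest adjusted p = 0.925 for K09F6.3). K09F6.3 was again the 1 gene with an unadjusted p under 0.05 (edgeR), against 5.01% of all genes. The unadjusted p of catp-4 lay just above that, at 0.0515 (edgeR). This fit was chosen after the data were seen.

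**Figure D3:**
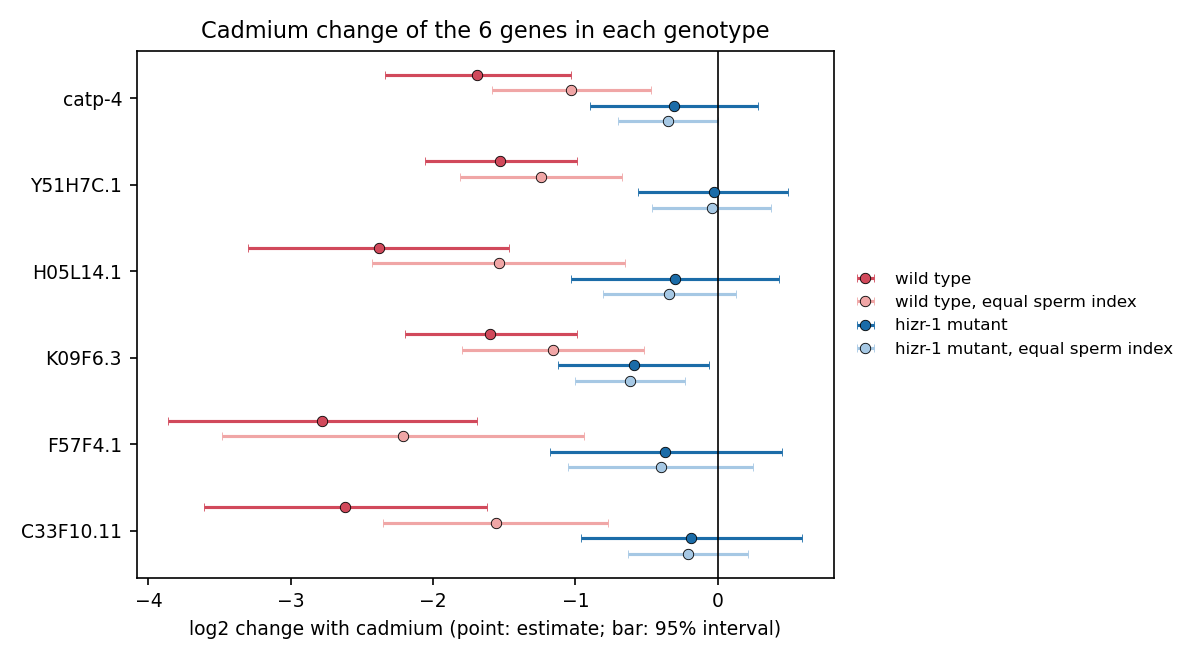
Log2 change with cadmium of each gene in the wild type and in the mutant, without and with the sperm index in the fit, as estimate and 95% interval. Wild-type values lie between -2.78 and -1.53 and move towards 0 at equal index, to between -2.21 and -1.03, while mutant values lie between -0.62 and -0.03 in both fits.

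Lists for other cell types and stages are given as values, with no test of their difference from the sperm lists. With cadmium in the wild type the median log2 change was -0.23 over 19 oocyte and eggshell genes, -0.26 over 12 germ line genes, 0.31 over 9 zygotic embryo genes, 0.08 over 11 intestinal genes, -0.11 over 10 muscle genes, 0.29 over 12 neuronal genes and 0.50 over 10 hypodermis and cuticle genes. None of these genes passed in that contrast (edgeR). Over 4 genes of the male soma and seminal fluid it was -0.05, with summed levels of 17.7 and 23.9 CPM without and 16.2 and 13.5 CPM with cadmium. Summed major sperm protein levels were 46.7 and 186 CPM without and 15.8 and 41.8 CPM with cadmium in the wild type, and 110 to 290 CPM over the mutant libraries. On the sperm index 26 of 26 major sperm protein genes and 13 of 36 other sperm genes had a positive slope that passed, which follows in part from their place in the index. Of the oocyte, germ line, embryo, intestinal and male lists 0 genes passed. A negative slope passed for 5 of 12 neuronal, 2 of 10 muscle and 1 of 10 hypodermis genes, against 2.73% of all genes. A positive slope passed for 2 of 10 hypodermis genes, against 6.39% of all genes. Over 6 metal response genes, hizr-1 among them, the median log2 change with cadmium was 3.83 in the wild type and 0.02 in the mutant.

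The Na+/K+-ATPase genes put catp-4 beside its family. The choice of catp-4 fixed its own call for cadmium in the wild type. The other genes of the 24 tested P-type ATPase and beta-subunit genes did not pass there (0.0506% of all genes were called lower), and the median of the list was -0.12. The main alpha subunit gene eat-6 was at 1139 to 1396 CPM over the 8 libraries and catp-1 at 28.7 to 49.8 CPM. The level of catp-3 was 373 and 284 CPM in the wild type without and 608 and 427 CPM with cadmium, a log2 change of 0.66 ± 0.21 that did not pass (edgeR, adjusted p = 0.327). Among the beta subunit genes nkb-1 was at 71.6 to 96.4 CPM and nkb-3 at 49.4 to 73.1 CPM.

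The third beta subunit gene, nkb-2, was low and had the order of group means of catp-4, though its wild-type groups overlapped. It was at 0.855 and 2.42 CPM in the wild type without and 0.273 and 0.94 CPM with cadmium, and at 4.61 and 3.66 CPM in the mutant without and 3.34 and 3.40 CPM with it. Its wild-type cadmium change of -1.45 ± 0.604 did not pass (edgeR, adjusted p = 0.412). Its slope on the sperm index, 0.88 ± 0.203, did (edgeR, adjusted p = 0.0255). These 2 genes, nkb-2 and catp-4, were the members of the list with a positive slope that passed (2 of 24, against 6.39% of all genes). Slopes that passed below 0 were those of catp-2, catp-3, mca-2 and tat-2 (4 of 24, against 2.73% of all genes), at -3.20 ± 0.359, -0.35 ± 0.0966, -0.31 ± 0.0796 and -0.37 ± 0.0965. The level of catp-2 was 6.28 CPM in wild-type cadmium replicate 1 and 0.0474 to 0.748 CPM in the others.

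**Figure D4:**
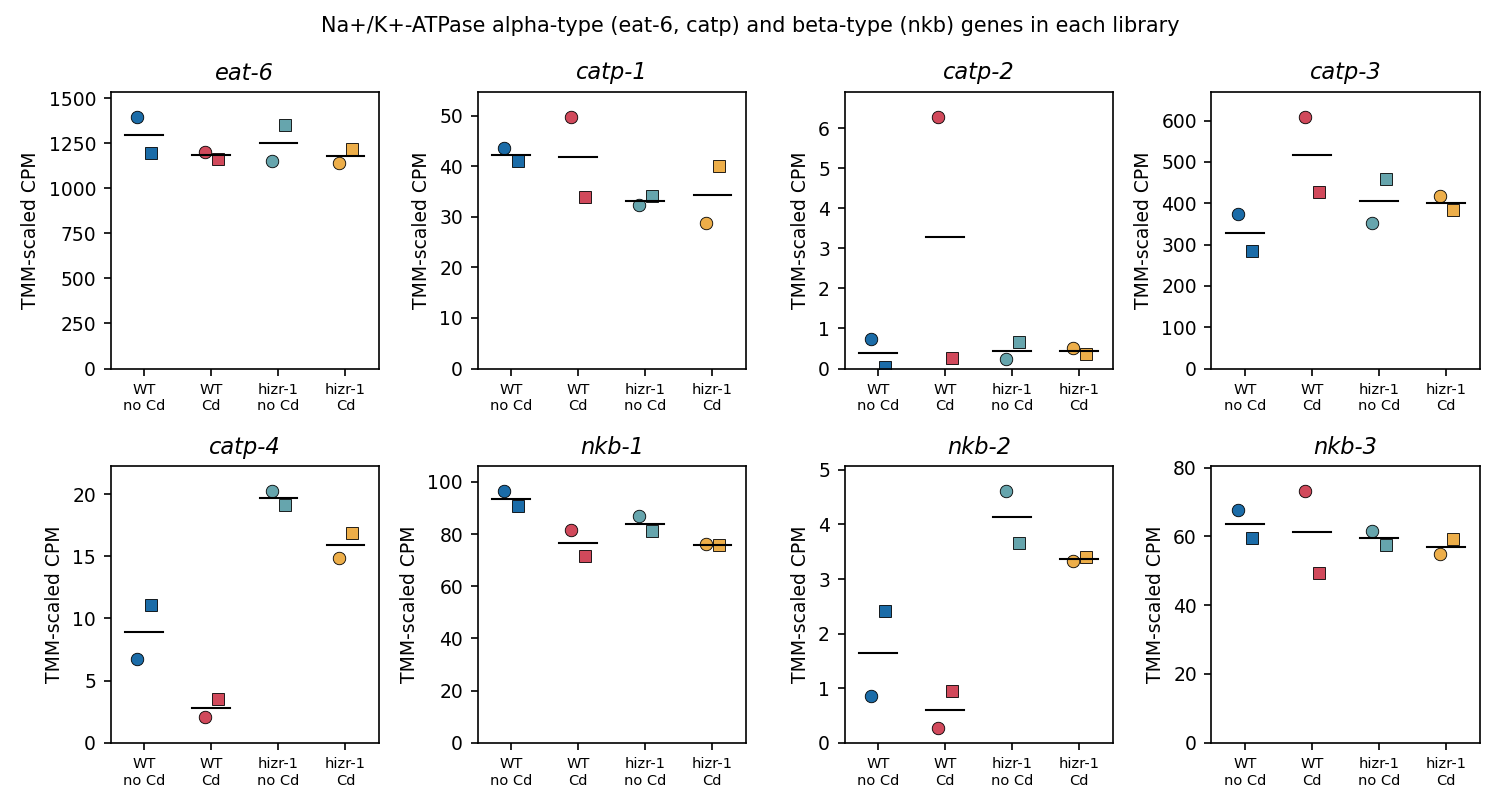
TMM-scaled CPM of 5 alpha-type and 3 beta-type Na+/K+-ATPase genes in every library, each panel starting at 0, with circles for replicate 1, squares for replicate 2 and a line at the mean. The panels of catp-4 and nkb-2 share one order of group means, lowest in the wild type with cadmium and highest in the mutant without it, while eat-6 stays between 1139 and 1396 CPM.

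Among themselves the 6 genes split by pattern. Across the 8 libraries, which include those that chose the genes, Pearson's r of log2 CPM between any 2 of catp-4, H05L14.1, K09F6.3, F57F4.1 and C33F10.11 was 0.96 or more, and between Y51H7C.1 and these 5 it was 0.62 to 0.80. With the sperm index r was 0.95 for catp-4, 0.95 for H05L14.1, 0.91 for K09F6.3, 0.91 for F57F4.1, 0.96 for C33F10.11 and 0.65 for Y51H7C.1. These are descriptions over libraries that fall into groups, so no p is given.

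The genes most like each of the 6 over the same 8 libraries were found among all tested genes. For catp-4 they were B0205.10 (r = 0.999), wht-5 (0.997) and spe-18 (0.996), for H05L14.1 F47D12.7 (0.996), C18H7.4 (0.996) and pck-3 (0.995), and for K09F6.3 kin-21 (0.995), nep-8 (0.994) and C05C12.1 (0.994). For C33F10.11 they were C16A11.7 (0.997), ssq-1 (0.996) and F40G12.10 (0.995), and for F57F4.1 Y106G6D.3 (0.986), T25B9.6 (0.984) and T21G5.1 (0.983). Y51H7C.1 had looser matches, metl-2 (0.953), bath-19 (0.941) and Y39A1A.24 (0.929). The 18 matches named are all different genes.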

How the data were processed

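RNA was purified with Trizol and a column and depleted of ribosomal RNA with Ribo-Zero, per the labels' protocols. STAR 2.0.4b, Subread, featureCounts 1.45 and build WBcel235 are named in the submitters' processing notes; annotation release, strand setting and treatment of reads with several matches are not given in the sources used here. The deposited counts are whole reads per gene, the deposited CPM are the authors' counts scaled to each library's sum, and the deposited RPKM divide these CPM by the length in kilobases that the authors list. Tests used the counts.

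EdgeR 4.0.16 (R 4.3.3) quasi-likelihood F tests were fitted to all 8 libraries with 4 group means, TMM scaling, robust dispersions and filterByExpr (minimum count 10, minimum total 15), 2-sided, with Benjamini-Hochberg adjustment over 15818 genes and a threshold of 0.05. The SE is the absolute log2 change over the square root of F, and 95% intervals use 11.3 to 12.3 degrees of freedom. Log2 CPM uses a prior count of 2. The sperm index entered a separate fit. Alternatives were RLE factors, DESeq2 1.42.0, limma-voom (limma 3.58.1), no filter, fewer libraries, a replicate block, other index genes and leaving out each library. Replicates differed beyond sampling noise (chi-square per degree of freedom 22.0 to 55.9). Scripts were tested on simulated data.

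Symbols and codons came from Ensembl release 115, whose coordinates are the same for 61.7% of the shared identifiers. No transcript sequences were used here. The list members without a match were msp-37, msp-42, msp-71, spe-21, spe-50, ssp-11 and opt-2. The 6 genes and the lists were chosen with earlier results of these data known. Named by rule were the 6 genes, the 2 genes just outside the threshold, the 3 most similar genes of each, the Na+/K+-ATPase genes with any list gene that passed, and the 3 most abundant genes of each sperm list.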

Additional observations from a re-analysis of the deposited data

How the results depend on the processing

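The log2 changes of the 6 genes with cadmium in the wild type stayed below 0 in all 14 alternatives, also at equal sperm index, and the slopes on the index stayed above 0. Of the 6 genes 0 passed for cadmium in the mutant in the alternatives that did not leave out 1 library. Only 5 of the 15818 tested genes passed edgeR's test for that change, so a gene that did not pass may still have changed. The mutant log2 changes stayed below 0 in all 16 alternatives for K09F6.3 (-0.71 to -0.47) and catp-4 (-0.4 to -0.22). They also did for H05L14.1 (-0.37 to -0.17) and F57F4.1 (-0.54 to -0.19). The 2 genes with a slope that passed became 1 with RLE factors, 0 with DESeq2, 1 with the index from major sperm protein genes, and 0 to 3 without 1 library. Without 1 library the median of the 6 ran from -2.54 to -1.59 for cadmium in the wild type, 0.52 to 1.45 for the genotypes without cadmium, 2.28 to 3.37 with it, and 1.43 to 2.23 for the interaction. Near 0, the mutant change of C33F10.11 was -0.43 to 0.12 without 1 library and 0.00055 with the index of spermatogenesis genes as a term, and that of Y51H7C.1 was -0.13 to 0.07 without 1 library and 0.02 with that index.

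Counts over all genes moved more. The 8 lower genes in the wild type became 396 with no filter, 143 with DESeq2, 3 with limma-voom, 289 with only the 4 libraries of the contrast, and 0 to 350 without 1 library. The 5 genes changed in the mutant became 3 with RLE factors, 21 with no filter, 11 with DESeq2, 1 with limma-voom, 0 with only the 4 libraries of the contrast, and 0 to 14 without 1 library. The 1010 positive slopes became 439 with the index from spermatogenesis genes and 18 to 1462 without 1 library. The cause was not tested. With a replicate block these 3 counts were 5, 0 and 1677, and 2 of the 6 genes kept a slope that passed; replicate differences correlated across genes by 0.42 between the wild-type groups, by -0.43 between the genotypes without cadmium and by -0.10 to 0.12 between the other pairs of groups, so the numbers were not taken to pair the samples. F57F4.1, at 4 and 10 counts in the wild type with cadmium, is limited most by depth.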

Other observations

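The nearest protein-coding gene on each side of the 6 genes gave 12 neighbours, of which 10 were tested. Their log2 changes with cadmium in the wild type ran from -2.82 to 0.21, with a median of -0.27, and 0 passed (edgeR). The lowest was that of Y51H7C.13, which lies 359 bp from Y51H7C.1 (-2.82, adjusted p = 0.19), followed by C33F10.1, which lies 194 bp from C33F10.11 (-1.49, adjusted p = 0.418). These 2 neighbours also had a slope on the sperm index that passed edgeR's test, while Y51H7C.1 itself did not pass. It was 0.92 for Y51H7C.13 (adjusted p = 0.015) and 0.88 for C33F10.1 (adjusted p = 0.0101). They are 2 of 10 tested neighbours, where 6.39% of all genes had a positive slope that passed. The neighbours were looked up after the values of the 6 genes were seen.

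By chromosome, the 62 genes of the sperm index had 28 on chromosome IV, 15 on I, 11 on II, 5 on V, 3 on III and 0 on X, and the 6 genes had 4 on II, 1 on I, 1 on V and 0 on X. Chromosome IV holds 16.7% and chromosome X 14.3% of the genes tested. With only 6 genes, 0 on X cannot be told from that share.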
